A study of Mus musculus with 12 samples.

Results

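The genes described here encode the proteins of the cytosolic ribosome. They were chosen by gene symbol: every entry named Rpl or Rps with a number and an optional suffix, the acidic stalk genes Rplp0, Rplp1 and Rplp2, and Rpsa. Of 84 symbols that match, 79 had a mean of at least 4 on the deposited log2 scale over the 12 libraries, and these are the members among 12965 genes that passed the same minimum. 46 encode proteins of the large subunit and 33 of the small subunit. The study measured liver RNA of wild-type C57BL/6 female mice that were either intact or ovariectomized and received either PBS, the vehicle, or dexamethasone, a synthetic glucocorticoid, at 1 mg/kg for 6 h. There were 4 groups of 3 libraries: intact females given vehicle, intact females given dexamethasone, ovariectomized females given vehicle and ovariectomized females given dexamethasone. The sources used here do not give the age of the mice. The labels do not say that the libraries of a group came from separate animals, so p-values measure the spread between these libraries.

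A ribosome is built from ribosomal RNA and one copy of most of its proteins, with the small subunit decoding the mRNA and the large subunit joining amino acids. The genes for these proteins are transcribed from compact promoters, and their mRNAs typically start with a C followed by a run of pyrimidines, the 5′ terminal oligopyrimidine tract, through which the mTOR kinase and LARP1 adjust their translation and stability. Mammalian genomes also hold many processed pseudogenes of these genes, which are copies made from mRNA and often nearly identical to it, and the liver carries a large demand for ribosomes because it secretes most plasma proteins.

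The bases around the annotated start of transcription are shown for 6 members that were lower in ovariectomized females under both treatments and for 4 members with a large rise (Rpl38, Rpl14, Rps13) or a fall (Rps2) under dexamethasone in intact females. Each run holds 15 bases before the start and 15 from it, on the coding strand, from RefSeq on GRCm38.p6, and the longest run of C or T is in capitals.
Rps10 (chr17:27635230-27635259, minus strand): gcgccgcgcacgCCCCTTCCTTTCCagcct
Rps28 (chr17:33824548-33824577, minus strand): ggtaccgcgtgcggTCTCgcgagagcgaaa
Rps7 (chr12:28635939-28635968, minus strand): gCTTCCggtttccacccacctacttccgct
Rps23 (chr13:90923107-90923136, plus strand): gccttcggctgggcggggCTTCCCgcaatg
Rpl36a (chrX:134585639-134585668, plus strand): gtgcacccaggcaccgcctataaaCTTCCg
Rpl35 (chr2:39005117-39005146, minus strand): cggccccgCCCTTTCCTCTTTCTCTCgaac
Rpl38 (chr11:114668565-114668594, plus strand): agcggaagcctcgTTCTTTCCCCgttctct
Rpl14 (chr9:120571502-120571531, plus strand): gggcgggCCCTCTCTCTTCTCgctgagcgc
Rps13 (chr7:116334176-116334205, minus strand): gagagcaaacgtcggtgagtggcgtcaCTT
Rps2 (chr17:24720048-24720077, plus strand): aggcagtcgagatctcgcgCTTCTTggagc
The longest run was 18 bases in Rpl35, 14 in Rpl14, 13 in Rps10, 10 in Rpl38 and 3 in Rps13. A RefSeq start was matched for 59 of the 79 members, which have 70 annotated starts. A run of at least 8 pyrimidines lay within 15 bases of the start, on the coding strand, in 40% of these promoters, against 12% of the 32851 promoters of all genes. The letters CCGGAAG on either strand, which make up the core bound by ETS-family factors such as GABP, were found in 35.7% of the members' promoters of 300 bases and in 8.86% of all. AAGATGGC on either strand, the core of the YY1 motif, was found in 11.4% against 2.75%, and TATAAA before the start on the coding strand in 2.86% against 7.59%. Members that moved in different ways shared these letters: in the 165 bases that end 15 bases past the start, Rps10, Rps7, Rpl35, Rpl38 and Rps2 each hold CCGGAAG or its reverse complement, while Rps23, Rps28, Rpl36a, Rpl14 and Rps13 do not. In the 165 bases of Rps10 the match, in capitals, lies just upstream of the start.
Rps10 (chr17:27635230-27635394, minus strand): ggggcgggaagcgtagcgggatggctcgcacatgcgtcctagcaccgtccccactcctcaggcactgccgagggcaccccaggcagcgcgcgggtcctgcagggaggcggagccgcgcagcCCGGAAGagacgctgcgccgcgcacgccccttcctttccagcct

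Copies elsewhere in the genome bear on every value below. Each member's coding sequence was cut into overlapping words of 50 bases and looked up in all other annotated transcripts of GENCODE vM21 on GRCm38, a later build than the mm9 build of the table. For 27 members all words occurred in another gene, and 78 of the 79 shared at least 1 word with an annotated pseudogene, up to 120 pseudogenes for a single member. The median share was 91.6%. Members with under 50% of their words elsewhere, called members with few copies here, numbered 13, with 5 in the large and 8 in the small subunit. The sources used here do not say how reads that match several genes were treated, and values of the other 66 members are uncertain in that respect.
The coding sequence of Rps10 begins with a word that 3 other genes also hold, and one of these overlaps it.
Rps10, coding bases 1 to 50: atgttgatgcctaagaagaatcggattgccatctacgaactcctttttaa
Of its 449 words, 34 occur in no other gene, such as the next one.
Rps10, coding bases 408 to 457: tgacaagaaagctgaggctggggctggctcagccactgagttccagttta
In Rps23 all 383 words occur elsewhere, and the word below is held by 12 other genes.
Rps23, coding bases 243 to 292: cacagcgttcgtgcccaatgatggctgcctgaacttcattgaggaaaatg

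The members differed widely in level. Their mean log2 level over the 12 libraries ran from 4.40 for Rps27 to 14.04 for Rpl4, with a median of 8.91. Rps27, a zinc-finger protein of the small subunit, and Rpl34, at 5.26, lay just above the minimum. Just below it lay Rpl3l, the striated muscle form of Rpl3, at 3.35, followed by Rpl30 at 2.24 and Rpl39l at 0.25. Rpl26 and Rpl10l were listed at 0 in all 12 libraries. Rpl10l and Rpl39l are expressed mainly in testis, whereas Rpl26 and Rpl30 are constituents of ribosomes in all cells.

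Most of these proteins are present in equal amounts in a ribosome, whereas the log2 levels of their genes in the table differed. Per kilobase of coding sequence, the log2 level was highest for Rpl41, the smallest ribosomal protein, at 15.81, then for the stalk protein gene Rplp1 at 14.38, Rps27l at 14.11, Rpl4 at 13.71 and Rps21 at 13.59. It was lowest for Rps27 at 6.37, Rpl34 at 6.76, Rps13 at 6.87, Rpl5 at 7.07 and Rpl24 at 7.40. The measure divides by coding length and leaves out untranslated parts. Rpl41 has 78 coding bases in a transcript of 437, and its rank depends on that choice. The median level per kilobase was 13.37 for the 13 members with few copies and 9.48 for the other 66. Across the 79 members the level per kilobase and the share of words found elsewhere had a Spearman rho of -0.65, as a description over genes of the same libraries. Whether that share set the levels was not tested.

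The first comparison asked how dexamethasone changed these genes in intact females. The members rose together: 57 of the 79 passed an adjusted p of 0.05 in limma (Benjamini-Hochberg adjustment over all 12965 genes) with a higher value and 1 with a lower value. Over all genes tested, 22.8% passed as higher and 25.9% as lower. The median difference over the members was 0.38 on the log2 scale, 1.31-fold, against 0.00 over all genes. In 57 members the 3 dexamethasone libraries all lay above the 3 vehicle libraries, and in 1 they all lay below, where 26.9% of all genes did the first and 28.6% the second. Both subunits took part, with 34 of 46 genes of the large subunit and 23 of 33 of the small subunit higher. Of the 13 members with few copies, 11 were higher and none lower, with a median of 0.27.

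**Figure D1:**
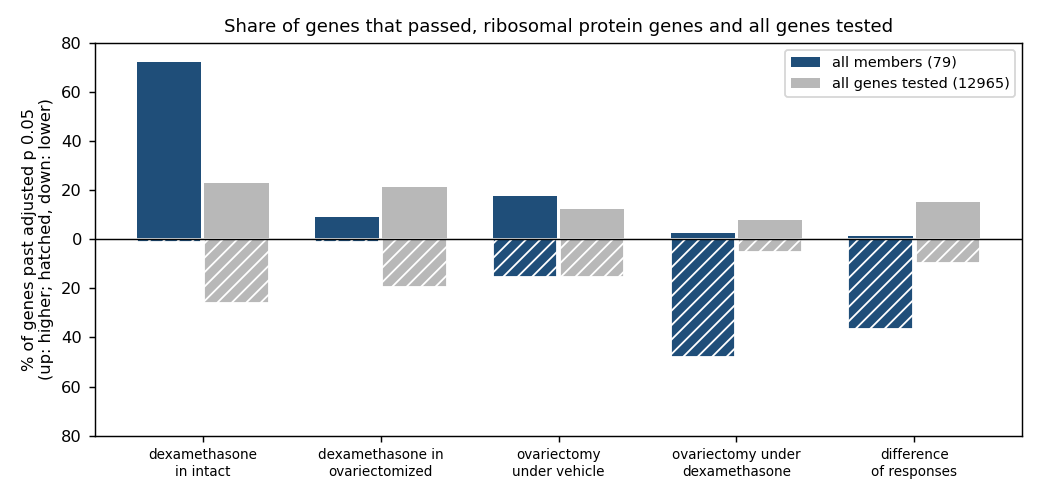
Share of genes, in percent, that passed an adjusted p of 0.05 in limma, for the ribosomal protein genes (dark bars) and all genes tested (grey bars), in 5 comparisons; bars above 0 are genes with a higher value and hatched bars below 0 genes with a lower value. The members' share with a higher value was 72.2% under dexamethasone in intact females and 8.86% in ovariectomized females.

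The mean over all members showed the same order in each library. It was 9.11, 9.25 and 9.01 in intact females given vehicle and 9.45, 9.41 and 9.57 in intact females given dexamethasone. In ovariectomized females it was 9.09, 9.14 and 9.11 with vehicle and 9.23, 9.09 and 9.17 with dexamethasone. The 3 libraries of intact females given dexamethasone were the highest of the 12 and overlapped no other group, while the other 3 groups overlapped each other. The mean over the 13 members with few copies was 11.87, 12 and 11.77, then 12.18, 12.16 and 12.21, then 12.02, 12.07 and 11.99, and then 12.14, 12.04 and 12.02, in the same order of groups. Here too intact females given dexamethasone were highest, and 2 of the vehicle libraries of intact females were lowest.

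**Figure D2:**
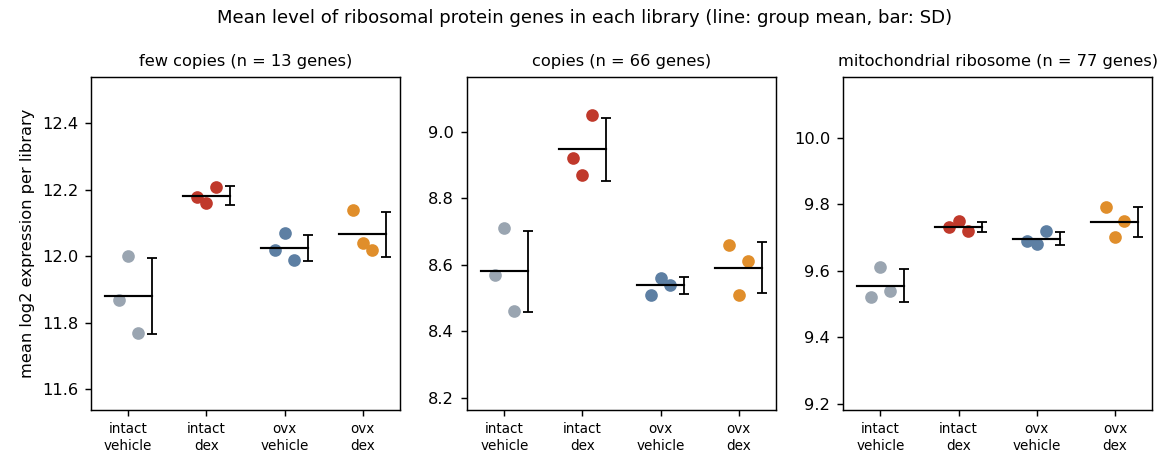
Mean log2 expression per library over the 13 ribosomal protein genes with few copies, the other 66, and 77 genes of the mitochondrial ribosome; points are libraries, lines group means and bars SD (n = 3 libraries; ovx, ovariectomized; dex, dexamethasone). In both cytosolic sets the 3 libraries of intact females given dexamethasone lie highest.

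Among the members the largest rise was that of Rps4l, a paralog of the small-subunit gene Rps4x that GENCODE annotates as a transcribed processed pseudogene. Its log2 values were 8.63, 8.74 and 8.15 with vehicle and 9.68, 9.31 and 9.44 with dexamethasone, a difference of 0.97 (SE 0.15, adjusted p = 0.0003 in limma). Its parent Rps4x, which is X-linked, had a difference of 0.17 with an adjusted p of 0.097. Rpl10a, a large-subunit protein near the exit site of tRNA, went from 8.25, 8.40 and 8.41 to 9.0, 8.83 and 9.30, a difference of 0.69 (SE 0.15, adjusted p = 0.0026). Both pairs of groups were separate in all libraries.

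Rps13, which helps bridge the subunits, went from 5.64, 5.19 and 5.36 to 6.03, 5.72 and 6.48, a difference of 0.68 (SE 0.17, adjusted p = 0.0065). Rpl14 went from 10.64, 10.86 and 10.54 to 11.37, 11.24 and 11.38, a difference of 0.65 (SE 0.08, adjusted p = 8.9e-05). Rpl38, whose loss in mice alters translation of Hox mRNAs, went from 7.72, 8.02 and 7.77 to 8.56, 8.33 and 8.55, a difference of 0.64 (SE 0.11, adjusted p = 0.00066). The libraries of the groups did not overlap in any of these 3 genes. Rpl28 had a difference of nearly the same size, 0.63, but its 3 dexamethasone libraries lay at 7.51, 6.28 and 7.58 and it did not pass (adjusted p = 0.084).

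The stalk, which recruits elongation factors to the large subunit, moved unevenly. Of its 4 genes 3 rose (75%, against 72.2% of all members and 22.8% of all genes). Rplp1 rose by 0.50 (SE 0.06, adjusted p = 9.0e-05), Rplp2 by 0.46 and Rpl12, at the stalk base, by 0.51. Rplp0, which carries the P1 and P2 proteins, had 12.14, 12.22 and 12.03 with vehicle and 12.12, 12.19 and 12.23 with dexamethasone, a difference of 0.05 (SE 0.07, adjusted p = 0.54), and its groups overlapped. Of 7 proteins that line or surround the exit of the peptide tunnel, 6 rose (85.7%, against 72.2% of all members and 22.8% of all genes). These were Rpl17 by 0.59, Rpl35 and Rpl39 by 0.44 each, Rpl31 by 0.41, Rpl19 by 0.30 and Rpl4 by 0.18. The seventh, Rpl23a, had a difference of -0.11 and did not pass. Rpl5 and Rpl11 bind the smallest ribosomal RNA and together restrain MDM2: Rpl5 rose by 0.21 (adjusted p = 0.046), a call lost in 13 of 24 alternatives, and Rpl11 had 0.23 with an adjusted p of 0.46.

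Around the decoding site and the mRNA channel 3 of 7 members rose and 1 fell, 42.9% and 14.3%. Of all members 72.2% rose and 1.27% fell, and of all genes 22.8% and 25.9%. Rps23 rose by 0.39, Rps15 by 0.36 and Rps26 by 0.34, while Rps12 had 0.31 and Rps28 0.37 and neither passed. Rps2, at the mRNA entry, was the member that fell: its values were 10.98, 11.14 and 10.92 with vehicle and 10.77, 10.80 and 10.83 with dexamethasone, a difference of -0.21 (SE 0.06, adjusted p = 0.0096), and it did not pass after quantile normalization (adjusted p = 0.09). Rps3, the other protein at the entry, had a difference of 0.02. Rps6, the substrate of S6 kinase, rose by 0.37 (SE 0.08, adjusted p = 0.0022). Rps27a, made as a fusion with ubiquitin, rose by 0.57. All 4 of the members that are paralogs of another ribosomal protein gene rose, where 72.2% of all members and 22.8% of all genes did. Beside Rps4l these were Rpl22l1 by 0.55, Rps27l by 0.24 and Rpl7l1 by 0.18, while Rpl22 had a difference of 0.04 (adjusted p = 0.67).

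Transcript length and GC content moved with this comparison. After removal of the dependence on transcript length and GC content within each library, 38 members were higher and 2 lower, and the median difference was 0.18 in place of 0.38. Among members named in this comparison, Rps13, Rplp1, Rpl12, Rpl19, Rpl4, Rps15 and Rps27l then did not pass. Leaving out each library in turn gave 48 to 60 members higher. Summed markers of other liver cells also differed: those of sinusoidal endothelium ran from 12.41 to 12.74 in intact females given dexamethasone and from 12.04 to 12.25 with vehicle, those of stellate cells from 13.11 to 13.17 and from 12.46 to 12.88, and those of B cells from 7.27 to 7.37 and from 7.75 to 8.20. Those of cholangiocytes ran from 8.02 to 8.05 and from 7.64 to 7.78, those of Kupffer cells from 13.35 to 13.48 and from 13.60 to 13.67, and those of hepatocytes from 22.01 to 22.14 and from 22.16 to 22.31. None of these pairs of ranges overlapped, whereas those of neutrophils did (7.13 to 7.29 and 7.09 to 7.46). Single markers varied, where 22.8% of all genes passed as higher and 25.9% as lower. In hepatocytes 3 of 8 passed as higher and 1 as lower. Elsewhere 2 of 5 endothelial, 3 of 5 stellate and 1 of 4 cholangiocyte markers passed as higher. Of Kupffer and B-cell markers, 2 of 7 and 4 of 4 passed as lower. The part of these cell types in the members' rise was not tested. In bulk liver more cells of a type and more RNA per cell cannot be told apart.

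**Figure D3:**
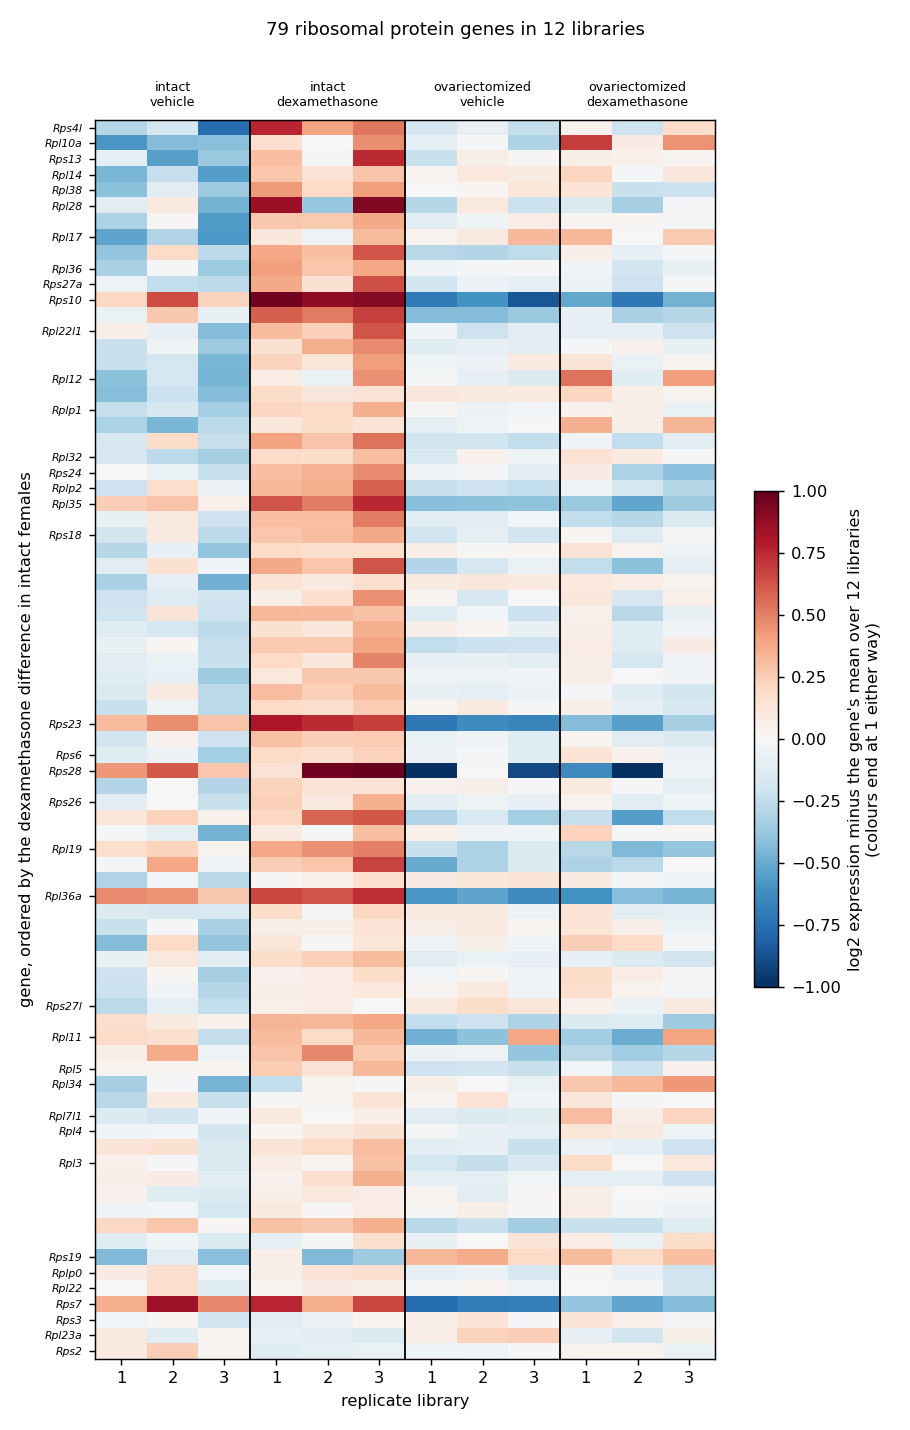
Log2 expression of the 79 ribosomal protein genes (rows) in the 12 libraries (columns) minus each gene's mean over the libraries; red is above the mean, blue below, rows are ordered by the dexamethasone difference in intact females, and rows that the text turns on are labelled. The column block of intact females given dexamethasone is red for most rows, and the rows of Rps10, Rps23, Rpl36a, Rpl35 and Rps7 are blue in both ovariectomized groups.

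In ovariectomized females the same dose of dexamethasone changed few of these genes. Of the 79 members 7 were higher and 1 lower, where 21.3% of all genes tested passed as higher and 19.4% as lower. The median difference was 0.03. The groups did not overlap in 12 members with higher and 4 with lower values, against 28.1% and 26.5% of all genes. Rpl10a went from 8.74, 8.82 and 8.52 to 9.52, 8.91 and 9.28, a difference of 0.54 (SE 0.15, adjusted p = 0.013). Rpl7l1, a nucleolar relative of Rpl7 that takes part in assembly of the large subunit, went from 10.75, 10.72 and 10.74 to 11.17, 10.93 and 11.08, a difference of 0.33 (SE 0.06, adjusted p = 0.0017). The groups did not overlap in either gene. The other members that rose were Rpl34 by 0.35, Rpl27 by 0.30, Rpl3 by 0.29, Rpl23 by 0.24 and Rps23 by 0.23. Rpl23a fell by 0.25, a call that was lost in 9 of 24 alternatives.

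5 members rose in both hormonal states: Rpl10a, Rpl23, Rpl27, Rpl7l1 and Rps23. That is 5 of the 7 higher in ovariectomized females, a share near the 72.2% of all members that rose in intact females. The count of 7 rests on single libraries: it was 2 without the first dexamethasone library of ovariectomized females and 3 without the third, and also 3 without the first or the third of their vehicle libraries. In the same order 17.3%, 17.1%, 15.9% and 17.7% of all genes were higher in these fits. Without the first dexamethasone library, or without the third vehicle library, Rpl10a did not pass (highest adjusted p over the alternatives 0.055). Of the 13 members with few copies, 1 was higher, Rpl7l1, and none lower.

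The difference between the responses was tested as an interaction. In 29 members the response to dexamethasone was lower in ovariectomized than in intact females and in 1 it was higher, against 9.65% and 15.3% of all genes tested. The median of the difference was -0.33 over the members and 0.01 over all genes. All 29 had risen in intact females. The largest differences were those of Rps4l at -0.80 (SE 0.21, adjusted p = 0.018), Rpl38 at -0.79 (SE 0.16, adjusted p = 0.005), Rpl36 at -0.66 (SE 0.13, adjusted p = 0.0037), Rps24 at -0.63 (SE 0.15, adjusted p = 0.013) and Rpl14 at -0.62 (SE 0.12, adjusted p = 0.0036). Rps2 was the member with a higher response, by 0.25 (adjusted p = 0.045), a call that was lost in 14 of 23 alternatives.

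Rps24 shows the pattern in each library. It had 10.79, 10.72 and 10.57 in intact females given vehicle and 11.09, 11.14 and 11.26 with dexamethasone. In ovariectomized females it had 10.74, 10.77 and 10.68 with vehicle and 10.87, 10.47 and 10.37 with dexamethasone. The intact groups were separate, and the ovariectomized groups overlapped.

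6 of the 13 members with few copies had a lower response in ovariectomized females, among them Rps4l, Rps15, Rps21, Rps27l and Rpl32, and each of these 5 lost its call with the length and GC trend removed. The count of 29 changed with the processing. It was 9 with the length and GC trend removed, with a median of -0.12, and 18 with no minimum on the level. It was 17 without the third vehicle library of intact females and 19 without the third dexamethasone library of ovariectomized females, and 42 without the second vehicle library of intact females. Of all genes, 6.92% were lower with the trend removed and 3.88% with no minimum. Without these single libraries, in the same order, 6.73%, 6.56% and 10.8% were. With the trend removed Rpl38, Rps24 and Rpl14 passed and Rps4l and Rpl36 did not.

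**Figure D4:**
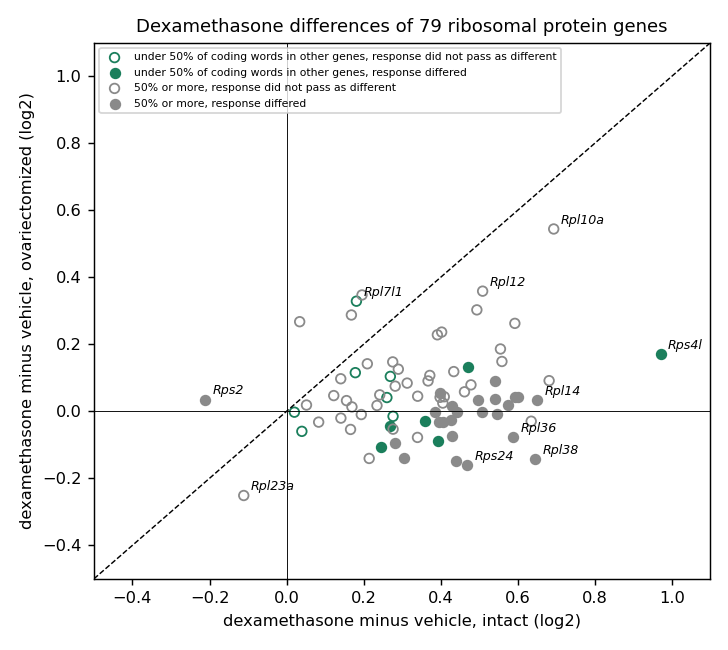
Dexamethasone minus vehicle on the log2 scale in intact (horizontal) and ovariectomized females (vertical) for each of the 79 ribosomal protein genes; filled points passed the test of the difference between the responses, green points have few copies, and the dashed line marks equal responses. Most points lie right of 0 and below the line, with Rpl10a near the line at 0.69 and 0.54 and Rps2 left of 0.

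Ovariectomy alone, compared in the vehicle groups, changed members in both directions. 14 were higher and 12 lower, shares of 17.7% and 15.2% that were near those of all genes tested, 12.4% and 15.5%. The median difference was 0.05. The groups did not overlap in 21 members with higher and 17 with lower values, against 20.7% and 24.4% of all genes. The count of 14 was 8 without the first or the third vehicle library of either state, 9 without the second of ovariectomized females and 6 with the length and GC trend removed, where 25 in place of 12 were lower. In that setting 7.89% of all genes were higher and 10.4% lower. The share of members that were lower then lay above that of all genes. Among the genes that rose, Rps19, whose loss is the most frequent cause of Diamond-Blackfan anaemia, went from 8.51, 8.84 and 8.53 in intact to 9.28, 9.32 and 9.15 in ovariectomized females, a difference of 0.62 (SE 0.13, adjusted p = 0.0044), which did not pass with that trend removed. Rpl17 rose by 0.62 (SE 0.12, adjusted p = 0.0046), Rpl14 by 0.49, Rpl29 by 0.46 and Rpsa, the laminin receptor, by 0.40. 13 of the 14 had also risen with dexamethasone in intact females, a comparison that shares the intact vehicle libraries, and Rps19 was the exception.

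6 of the 12 members that fell, picked out after their values were seen, had differences of -0.61 or beyond. The other 6, Rpl5, Rps15a, Rpl19, Rpl35a, Rpl6 and Rpl37a, lay between -0.24 and -0.46. Rps7 went from 7.86, 8.34 and 7.98 in intact to 6.73, 6.80 and 6.81 in ovariectomized females, a difference of -1.28 (SE 0.13, adjusted p = 0.00014), 2.42-fold lower. Rps10, near the mRNA entry on the head of the small subunit, went from 8.25, 8.70 and 8.27 to 7.34, 7.45 and 7.19, a difference of -1.08 (SE 0.12, adjusted p = 0.00023). Rps23, which reaches into the decoding centre, went from 7.04, 7.19 and 7.01 to 6.01, 6.10 and 6.07, a difference of -1.02 (SE 0.08, adjusted p = 7.4e-05). In each of these genes every ovariectomized library lay below every intact library.

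Rpl36a went from 6.96, 6.94 and 6.76 to 5.91, 5.96 and 5.86, a difference of -0.98 (SE 0.08, adjusted p = 9.4e-05). Rpl35, beside the tunnel exit, went from 7.07, 7.11 and 6.87 to 6.40, 6.41 and 6.42, a difference of -0.61 (SE 0.09, adjusted p = 0.00093). Rps28, in the mRNA exit channel, was more variable: it had 7.90, 8.08 and 7.74 in intact and 6.36, 7.47 and 6.56 in ovariectomized females, a difference of -1.11 (SE 0.34, adjusted p = 0.031). Of these 6 genes, Rps28 alone lost its call under any alternative, in 6 of 24 here, among them leaving out any of the intact vehicle libraries, and in 7 of 24 under dexamethasone.

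The same 6 genes were lower in ovariectomized females under dexamethasone, in the other 6 libraries. Their choice used both comparisons, so these values describe the set and do not test it anew. Rps10 had 9.01, 8.93 and 8.96 in intact and 7.53, 7.33 and 7.57 in ovariectomized females given dexamethasone, a difference of -1.49 (SE 0.12, adjusted p = 9.2e-05), 2.81-fold lower. Rps23 had 7.53, 7.47 and 7.42 against 6.29, 6.18 and 6.39, a difference of -1.18 (SE 0.08, adjusted p = 3.4e-05). Rpl36a had 7.16, 7.12 and 7.23 against 5.88, 6.06 and 6.02, also a difference of -1.18 (SE 0.08, adjusted p = 3.4e-05).

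Rps28 had 7.61, 8.44 and 8.77 against 6.83, 6.40 and 7.42, a difference of -1.39 (SE 0.34, adjusted p = 0.028). Rpl35 had 7.45, 7.34 and 7.58 against 6.45, 6.30 and 6.47, a difference of -1.05 (SE 0.09, adjusted p = 0.00014). Rps7 had 8.26, 7.86 and 8.16 against 7.11, 6.98 and 7.06, a difference of -1.04 (SE 0.13, adjusted p = 0.002). The groups did not overlap in any of the 6 under either treatment.

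Over all 12965 genes tested, 14 passed in both ovariectomy comparisons with a value at least 1.5-fold lower in each, and 6 of the 14 were these ribosomal protein genes. The fold limit was set after the values were seen, and the same rule defined the 6. The 6 genes lie on chromosomes 2, 12, 13, 17 and X, and each shares from 91.6% to 100% of its coding words with other genes. None of the 13 members with few copies was lower in ovariectomized females under vehicle. Of the other 66, 12 were, a share of 18.2% near the 15.5% of all genes tested. Rps10 and Rpl35 each overlap another annotated gene with which they share words. Whether reads of pseudogenes or other copies moved with the falls was not tested. Markers of Kupffer cells, the liver's resident macrophages, were also lower. Under each treatment 5 of 7 passed (71.4%, against 15.5% of all genes under vehicle and 5.08% under dexamethasone). The sum of these markers ran from 13.13 to 13.35 in ovariectomized and 13.60 to 13.67 in intact females given vehicle. Given dexamethasone it ran from 12.88 to 13.21 and from 13.35 to 13.48. The other 8 of the 14 were Igf2bp3, Arhgap11a, Birc5, Ifit1, Rsad2, Ercc6l, Msr1 and Brca1. The part of Kupffer cells in the falls was not tested. With the length and GC trend removed, the 6 differences under vehicle ran from -0.84 for Rpl35 to -1.40 for Rps7.

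**Figure D5:**
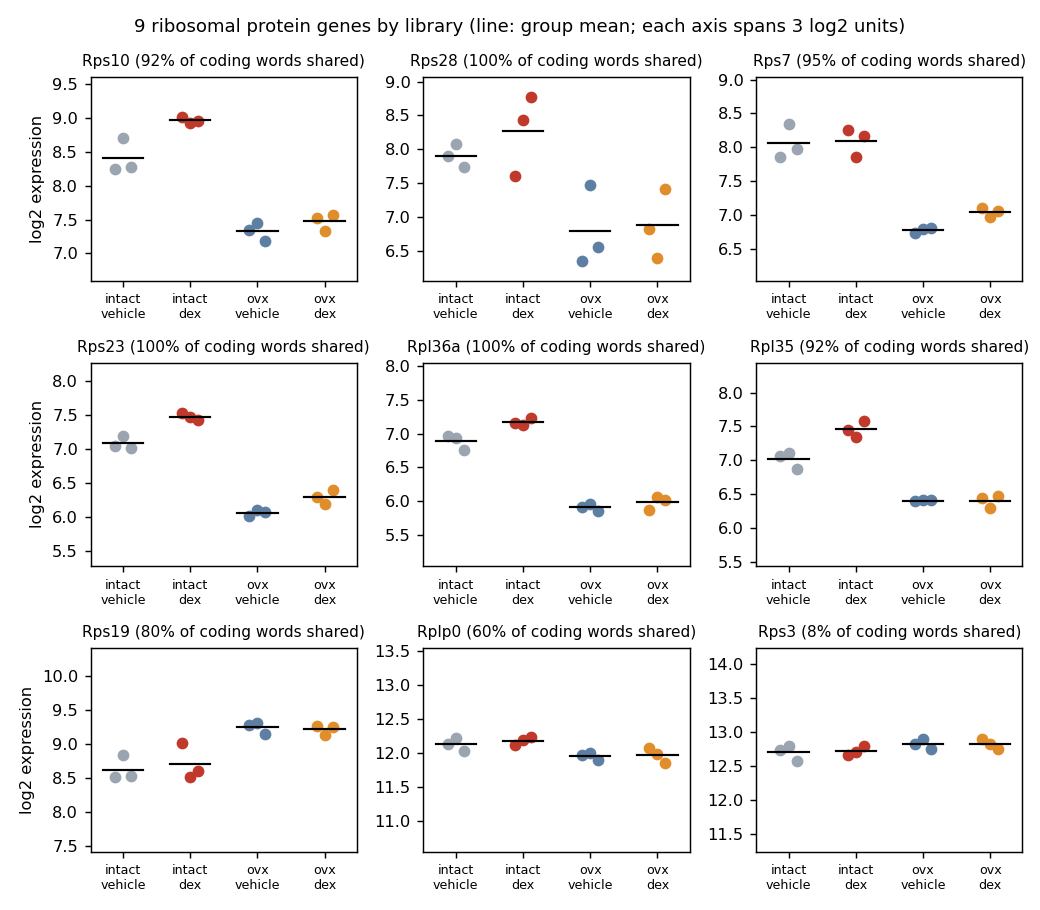
Log2 expression per library (points) and group mean (line) of 6 ribosomal protein genes that were lower in ovariectomized females and of Rps19, Rplp0 and Rps3 for comparison, with the share of coding words found in other genes (n = 3 libraries a group; ovx, ovariectomized; dex, dexamethasone; each axis spans 3 log2 units). In the first 6 panels both ovariectomized groups lie below both intact groups.

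Under dexamethasone the ovariectomized females had lower levels of many members. 38 of the 79 were lower and 2 higher, where 5.08% of all genes tested passed as lower and 7.74% as higher, and the median was -0.27. The libraries of the groups did not overlap in 48 members with lower and 2 with higher values, against 14.6% and 19.5% of all genes. All 12 members that were lower under vehicle were among the 38, which hold Rpl19 at -0.82, Rpl37a at -0.83, Rpl35a at -0.81 and Rps29 at -0.68 beside the 6. 31 of the 38 had risen with dexamethasone in intact females, a comparison that shares the intact dexamethasone libraries. The 2 that rose were Rps19 by 0.51, from 9.02, 8.51 and 8.60 to 9.27, 9.14 and 9.25, and Rpl34 by 0.42. The call of Rps19 was lost in 8 of 24 alternatives and that of Rpl34 in 13 of 23, and the count of 2 was 0 without the second or the third dexamethasone library of intact females or the first or the third of ovariectomized females, and 1 without most others.

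Without the 6 genes above, 32 of the remaining 73 members were lower. Of the 13 members with few copies 3 were lower, and their median was -0.04. The count of 38 was 17 without the third dexamethasone library of ovariectomized females, 24 without the second, 20 without the first dexamethasone library of intact females and 22 without the third. It was 25 when only the 6 libraries compared entered the fit. Calls over all genes dropped as well. In the same order of left-out libraries 0.48%, 2.48%, 0.83% and 3.78% of all genes were lower. With only the libraries compared the share was 1.57%, against 5.08% in the main fit.

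Members named in Diamond-Blackfan anaemia, a red-cell aplasia caused by loss of 1 copy of a ribosomal protein gene, numbered 18. Of these 11 were higher with dexamethasone in intact females (61.1%, against 72.2% of all members and 22.8% of all genes). In ovariectomized females 1, Rpl27, was higher (5.56%, against 8.86% and 21.3%). With ovariectomy, 7 were lower and 2 higher under vehicle (38.9% and 11.1%, against 15.2% and 17.7% of all members and 15.5% and 12.4% of all genes). Under dexamethasone 11 were lower and 1 higher (61.1% and 5.56%, against 48.1% and 2.53% of all members and 5.08% and 7.74% of all genes). The 7 lower under vehicle were Rps7, Rps10, Rps28, Rpl35, Rpl35a, Rps15a and Rpl5, while Rps19 and Rpl27 were higher. Rps7, Rps10, Rps28 and Rpl35 belong to the set picked out above after their values were seen. Under vehicle the call of Rpl5 was lost in 11 of 24 alternatives and that of Rpl27 in 7.

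Several members serve as reference genes for quantitative PCR, which assumes equal levels between groups. Of 8 such members, 7 rose with dexamethasone in intact females: Rps16 by 0.59, Rpl32 by 0.47, Rps18 by 0.43, Rpl13a by 0.40, Rpl19 by 0.30, Rps9 by 0.27 and Rpl4 by 0.18. Rpl19 was also lower by 0.37 and 0.82 in ovariectomized females under vehicle and dexamethasone. Rplp0 passed in none of the 5 comparisons, and its largest difference was -0.21 (SE 0.07, adjusted p = 0.057) for ovariectomy under dexamethasone. Of 6 reference genes that are not members, 4 rose with dexamethasone in intact females: Gapdh by 0.87, Actb by 0.77, Ppia by 0.41 and Hprt by 0.17. Over all 14 reference genes 78.6% rose there and 0% fell, against 22.8% and 25.9% of all genes.

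Over the 12 libraries the members moved together, with a median pairwise Pearson r of 0.55, as a description over libraries that share their groups. 29 of the 79 had an r above 0.8 with the mean of the others, highest for Rps26 and Rps18. 4 had an r below 0: Rpl23a at -0.54, Rps2 at -0.37, Rps19 at -0.32 and Rps3 at -0.03. Among genes that are not members, the mean of the members was followed most closely by Eef1g, a subunit of the elongation factor that reloads eEF1A, with r of 0.97, and Npm1, the nucleolar chaperone of ribosome assembly, with 0.95. Next came Akr1b7 at 0.94, Sox17 at 0.93, and 2700060E02Rik, Dll4 and Snrpe at 0.91 each. Pdcd10 and Auts2 followed at 0.90 each and Upf3a at 0.88. Sox17 and Dll4 are endothelial genes.

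Among ribosomal protein genes that the naming rule missed, Rpl36al rose by 0.33 with dexamethasone in intact females, and its response was lower by 0.25. Fau had 0.34 with an adjusted p of 0.05 and Gnb2l1, which encodes RACK1, had 0.12, and neither passed.

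Of 64 ribosome biogenesis factors, which assemble the subunits, 35 were higher and 3 lower with dexamethasone in intact females (54.7% and 4.69%, against 22.8% and 25.9% of all genes). In ovariectomized females 55 were higher and none lower (85.9% and 0%, against 21.3% and 19.4%), and the medians were 0.26 and 0.37. Rrp12, needed for export of both subunits, rose by 0.62 in intact and 1.33 in ovariectomized females, and Heatr1, a processome subunit, by 0.25 and 0.74. In the test of the difference of responses 8 of the 64 were higher and 3 lower in ovariectomized females, shares of 12.5% and 4.69% that lie below the 15.3% and 9.65% of all genes. All 8 snoRNA host genes, whose transcripts also begin with pyrimidine tracts, rose in intact females and 5 of them in ovariectomized females (100% and 62.5%, against 22.8% and 21.3% of all genes). Snhg3 rose by 1.15 and 1.09, and Gas5 by 0.59 and 0.25.

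Of 25 elongation factors and other mRNAs with terminal pyrimidine tracts, dexamethasone raised 11 and lowered 3 in intact females (44% and 12%, against 22.8% and 25.9% of all genes), and 9 rose and none fell in ovariectomized females (36%, against 21.3%). Eef2, the translocase, went from 15.51, 15.65 and 15.46 to 14.99, 15.14 and 15.13 in intact females, a difference of -0.46 (SE 0.07, adjusted p = 0.00046), opposite to the members. Eef1a1 fell by 0.24. Btf3, a nascent chain factor, was lower in ovariectomized females by 0.42 under vehicle and 0.67 under dexamethasone. Of 26 initiation factors 15 rose and 4 fell in intact females (57.7% and 15.4%, against 22.8% and 25.9% of all genes). In ovariectomized females 18 rose and none fell (69.2% and 0%, against 21.3% and 19.4%). Eif4a1 had 0.75 in intact and 0.24 in ovariectomized females, and Eif4g1 had -0.58 and 0.17.

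Among 31 genes that regulate ribosomal protein synthesis, 13 fell and 5 rose under dexamethasone in intact females, 41.9% and 16.1% against 25.9% and 22.8% of all genes. In ovariectomized females 11 rose and 4 fell, 35.5% and 12.9% against 21.3% and 19.4%. Eif4ebp3, an inhibitor of cap-dependent initiation, had 10.28, 10.16 and 9.97 with vehicle and 13.01, 12.87 and 13.02 with dexamethasone in intact females, a difference of 2.83 (SE 0.10, adjusted p = 3.9e-08), and it rose by 2.89 in ovariectomized females. Mtor fell by 0.63 in intact females and had -0.15 in ovariectomized females, which did not pass, and the test of the difference gave 0.48 (SE 0.14, adjusted p = 0.031).

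The mitochondrial ribosome, which makes the proteins encoded by mitochondrial DNA, is built from other genes. Of its 77 measured genes 41 were higher and 2 lower with dexamethasone in intact females (53.2% and 2.6%, against 22.8% and 25.9% of all genes), with a median of 0.18. In ovariectomized females 15 were higher and 5 lower (19.5% and 6.49%, against 21.3% and 19.4%). Under vehicle 34 were higher and 2 lower in ovariectomized females (44.2% and 2.6%, against 12.4% and 15.5%). Under dexamethasone 3 were higher and 2 lower (3.9% and 2.6%, against 7.74% and 5.08%). The median there was 0.02 where the cytosolic members had -0.27. Of 76 genes of oxidative phosphorylation, 54 were higher and 5 lower with dexamethasone in intact females (71.1% and 6.58%, against 22.8% and 25.9%). With ovariectomy under vehicle 51 were higher and 2 lower (67.1% and 2.63%, against 12.4% and 15.5%). These counts are given side by side, and no test compared the sets.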

How the data were processed

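Liver RNA of 12 libraries was analysed from 1 table of 24962 entries and 24033 symbols. Its log2 values were deposited by the authors as normalized expression. Per the submitters' processing notes, the tools were DESeq, DESeq2, HTSeq, TopHat2 and Trim Galore and the build mm9, and per the labels' protocols libraries were made with the TruSeq V2 kit. The sources used here do not state the annotation, the exact transformation or the handling of reads that match several places. The table holds no counts, so depth is unknown, and the number of libraries limits the precision. The lowest library median was 8.82 and the highest 8.86.

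Where a symbol had several entries the one with the highest mean was kept, and genes with a mean of at least 4 were tested. All 4 groups entered 1 limma fit (version 3.58.1, R 4.3.3, eBayes with a variance trend), and p-values were adjusted by Benjamini-Hochberg over 12965 genes. The test was checked on simulated data. Groups were taken from sample labels. GENCODE vM21 gave lengths and GC for 99.5% of the genes tested. Genes named were, in each comparison, up to 8 members with the largest passing rise and fall, reference genes and paralogs with their parents, the 5 highest and lowest members by level per length, up to 4 passing members of each other list and the 10 most similar genes. The set of 6 genes lower with ovariectomy, and members printed by role outside this rule, were chosen after their values were seen. The members and the gene lists were chosen with earlier results of these data known. Alternatives changed the level minimum, the pseudocount, the scaling, the variance model, library weights, the groups in the fit, the replicate block, the length and GC trend and the members, and left out each library in turn. Some results are not reported here.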

Additional observations from a re-analysis of the deposited data

Results flagged for a closer look

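A test of the difference between the dexamethasone responses, the interaction term of the limma fit, set apart 29 members with a lower and 1 with a higher response in ovariectomized than in intact females at an adjusted p of 0.05. Of those named, the differences on the log2 scale were largest for Rps4l at -0.80, Rpl38 at -0.79, Rpl36 at -0.66, Rps24 at -0.63, Rpl14 at -0.62 and Rpl39 at -0.59. Differences between -0.56 and -0.50 were those of Rpl13 at -0.56, Rps27a at -0.56, Rpl22l1 at -0.56, Rpl17 at -0.55, Rpl29 at -0.51 and Rps29 at -0.50. Rps21 had -0.48, Rplp1 -0.46, Rpsa -0.45, Rpl35 -0.44, Rpl19 -0.44 and Rpl13a -0.43. Rps15 had -0.39, Rpl41 -0.38, Rps27l -0.35 and Rpl32 -0.34. Rps2, which had fallen in intact females, differed by 0.25 in the other direction.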

How the results depend on the processing

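The number of members higher with dexamethasone in intact females was between 48 and 60 when each library was left out in turn, 67 with library weights, 38 with the length and GC trend removed and 34 with that trend removed and the replicate block. The members lower there numbered 0 after quantile normalization and 2 with the trend removed, with or without the block, and 1 without any single library. The median difference, 0.38, was 0.32 to 0.44 without single libraries and 0.18 with the trend removed, with or without the block. In ovariectomized females the 7 members higher with dexamethasone were 2 to 8 without single libraries, 4 with no minimum on the level and 14 with library weights. The 1 lower was 0 to 1 without single libraries, 0 with no minimum or with only the libraries compared and 2 with library weights. Its median ran from -0.01 to 0.06 without single libraries. For ovariectomy under vehicle, the 14 higher were 8 to 21 without single libraries (8 without the first or the third vehicle library of either state and 9 without the second of ovariectomized females), 33 with library weights and 6 with the trend removed. The 12 lower were 9 to 14, and 25 with the trend removed or 24 with the block as well, and the median was 0.02 to 0.12, and -0.0692 with the trend removed. For ovariectomy under dexamethasone, the 2 higher were 0 to 2 without single libraries, 0 with no minimum or with only the libraries compared and 1 with a minimum of 6, recentred medians or quantile normalization. The 38 lower were 17 to 39, 21 with no minimum and 25 with only the libraries compared, and the median ran from -0.31 to -0.20. The count of 17 came without the third dexamethasone library of ovariectomized females. There 0.48% of all genes were lower, against 5.08% in the main fit. For the difference of responses, the 29 lower were 17 to 42, 18 with no minimum, 53 with library weights and 9 with the trend removed or 8 with the block as well. The median was -0.39 to -0.27, and -0.12 with the trend removed. The 1 higher was 0 to 1, and 0 with no minimum, recentred medians, quantile normalization, no variance trend or the replicate block. Among the 13 members with few copies, 11 were higher and 0 lower with dexamethasone in intact females (median 0.27), 1 and 0 in ovariectomized females, 4 and 0 with ovariectomy under vehicle (median 0.20), 0 and 3 under dexamethasone (median -0.0416), and 0 and 6 in the difference of responses, where fewer genes could be counted. With the length and GC trend removed, with or without the block, Rpl41 had -0.0356 with dexamethasone in intact females and -0.0035 with ovariectomy under vehicle, where Rps21 had -0.0485, Rplp1 -0.093 and Rpl32 -0.0092, against positive values otherwise. For these changes the cause was not tested. Libraries with the same replicate number did not pair (correlations of their deviations from -0.23 to 0.40 over 18 pairs), and the replicate block gave 55 members higher with dexamethasone in intact females and 35 lower with ovariectomy under dexamethasone. Over 6530 values of single genes under the alternatives, 394 lost and 111 gained a call and 10 that had passed in either fit changed sign. Another 152 changed sign with no call in either fit, and 5863 kept sign and call.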
